A study of Mus musculus with 4 samples.

Results

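The genes described are the enzymes that add methyl groups to histones and those that remove them, together with relatives that carry the same catalytic domains. They were chosen by name: every gene with a probe set of its own whose symbol starts with Kmt, Setd, Setmar, Ehmt, Suv39h, Suv420h, Nsd, Whsc1, Prmt, Kdm, Dot1l, Ash1l or Smyd, other than Kdm2b and Kdm5d. The rule gave 56 of the 19938 genes tested. One of them, Nsdhl, an enzyme of cholesterol synthesis, was matched by its letters only, and the other 55 genes are described here. Ash1l, Suv39h1 and Kdm4dl bear such names in the RefSeq gene table but had no probe set under their symbol alone and were not analysed here.

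Expression was measured on Affymetrix MoGene 1.0 ST arrays in E14 cells, a mouse embryonic stem cell line of an inbred 129 strain. The 2 control arrays carried RNA of E14 cells with the genotype control, and the 2 knockdown arrays RNA of E14 cells under Kdm2b knockdown. The labels' protocols state that cells were infected with lentiviral vectors at 10 MOI, selected with 2 µg/ml puromycin added 48 h later, and grown on gelatin in medium that held 15% serum and leukemia inhibitory factor at 1000 units/ml. What the control vector carried, the knockdown sequence and the harvest time were not given in the sources used here. No label says whether replicates were separate cultures, and the p-values therefore measure only how far these arrays differ, which may be technical.

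Histone lysine methylation is written mostly by enzymes with a SET domain and erased either by the flavin-dependent Kdm1 enzymes or by oxygenases with a JmjC domain. H3K4 methylation marks promoters and enhancers, H3K36 methylation marks transcribed genes, and H3K9 and H3K27 methylation mark silent chromatin. Arginine residues are methylated by the Prmt family, which shares no domain with the SET enzymes. Kdm2b, the knocked-down gene, is itself a JmjC demethylase. Its zinc finger binds unmethylated CpG-rich DNA, and it belongs to a variant of Polycomb repressive complex 1 (PRC1), which marks H2A. The title of the series concerns the recruitment of PRC1 to CpG islands, and the comparison here shows how the other histone methylation enzymes were expressed when Kdm2b was knocked down.

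Values are log2 expression as deposited, so a difference of 1 is a doubling. Array medians over all 35557 probe sets lay between 8.49 and 8.55, and replicate arrays correlated at 0.9963 and 0.9966. The knockdown was seen in both arrays: Kdm2b stood at 10.74 and 10.64 in control cells and at 9.20 and 9.19 in knockdown cells, and the difference of -1.495 had an SE of 0.066 (adjusted p = 0.0039, limma). None of 9 stem cell markers passed the threshold, with 2 at an unadjusted p under 0.05 (limma), as 29.8% of all genes were, and each lay above the median level of the arrays. Primitive endoderm markers moved with the knockdown: 11 of 11 had a positive log2 fold change, beside 11482 of all 19938 genes. Of the 11, 5 passed the threshold upward, beside 5% of all genes. Their summed linear signal was 9917 to 12360 in control and 18190 to 23830 in knockdown cells. Among 10 fibroblast and feeder markers 1 passed upward and 2 downward, or 30% called beside 12.2% of all genes. Their summed signal was 4346 and 4381 in control and 4192 and 4314 in knockdown cells. What part cells of the endoderm lineage have in the changes given here was not tested. In bulk RNA a change in the number of cells of a type and a change in RNA per cell cannot be told apart.

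Of the 55 histone methylation enzymes 7 passed the threshold, an adjusted p under 0.05 over all genes tested. The arginine methyltransferase genes Prmt8 and Prmt6 and the H3K27 demethylase gene Kdm6b were higher after knockdown. The lysine methyltransferase genes Setd7, Smyd3 and Nsd2 and the demethylase gene Kdm7a were lower. These 7 are 12.7% of the 55 enzymes, beside 12.2% of all genes tested, so the share is near the background. By direction, 3 were higher beside a background of 5%, and 4 were lower beside a background of 7.19%. Since 53 of the 55 enzymes lay above the median level of 8.52, the genes above that level are a nearer background, and of these 17.4% passed, 6.65% higher and 10.8% lower.

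Most of the enzymes changed little. The median log2 fold change of the 55 was -0.01, beside 0.03 over all genes tested, and the median size regardless of direction was 0.11, beside 0.115. Of the 55, 27 had a positive and 28 a negative log2 fold change, and 26 changed by less than 0.1 in either direction. Prmt8 alone among them changed at least 2-fold, a size that 0.622% of all genes reached. Control and knockdown arrays did not overlap for 31 of the enzymes (56.4%), beside 58.8% of all genes. With no overlap, 14 of the 55 (25.5%) were higher in knockdown cells, beside 33.8% of all genes, and 17 (30.9%) were lower, beside 25%.

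**Figure D1:**
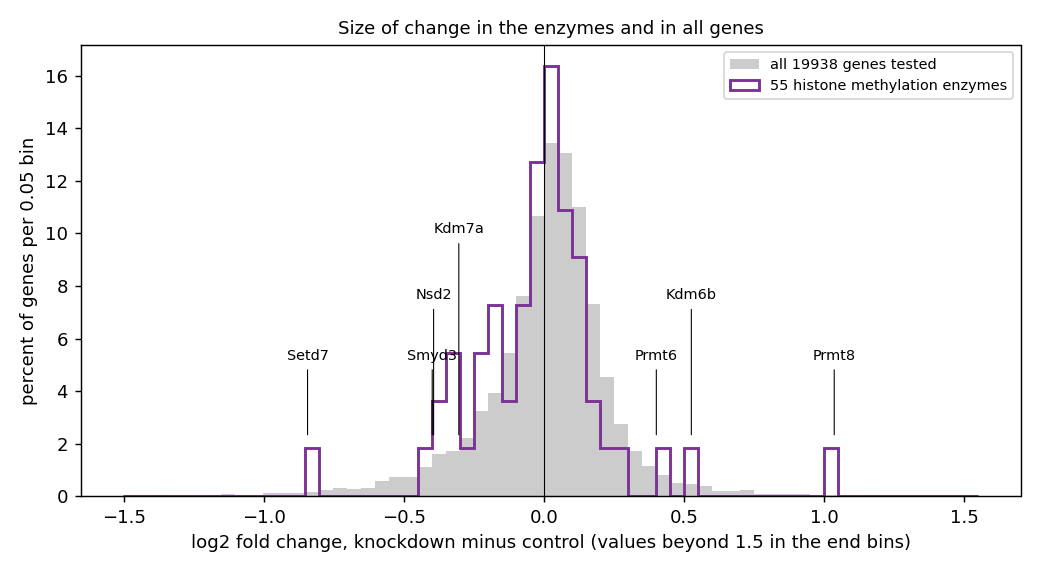
Share of genes (percent per bin of 0.05) by log2 fold change, for all 19938 genes tested (grey) and for the 55 histone methylation enzymes (purple line), with the 7 enzymes past the threshold named. Both distributions centre near 0, with medians of 0.03 and -0.01, and Setd7 and Prmt8 lie farthest out among the enzymes.

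The largest rise was in the arginine methyltransferase family. Prmt8, a membrane-anchored relative of Prmt1 known mainly from brain, read 8.57 and 8.42 in control cells and 9.70 and 9.36 in knockdown cells. Both knockdown arrays were above both control arrays, although they lay 0.34 apart from each other, a gap second only to that of Suv39h2 among the enzymes. Its log2 fold change was 1.035 (SE 0.12, adjusted p = 0.0098, limma), a 2.05-fold higher level, with a 95% interval from 0.73 to 1.34. Prmt8 was among the dimmer of the enzymes, with a mean level of 9.01 close to the middle of all genes tested. Prmt6, which asymmetrically dimethylates H3R2, read 9.21 and 9.35 in control and 9.67 and 9.69 in knockdown cells. The groups did not overlap, and the rise was 0.40 (SE 0.072, adjusted p = 0.0242, limma).

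The other 6 arginine methyltransferases passed no threshold. Of all 8, 25% passed, beside 17.4% of genes above the median level, where all 8 lay. Prmt5, the main enzyme of symmetric arginine dimethylation, read 13.26 and 13.24 in control and 13.25 and 13.26 in knockdown cells, and its 95% interval ran from -0.14 to 0.15. The values of Prmt1, the main enzyme of asymmetric dimethylation and the closest relative of Prmt8, were 11.88 and 11.85 in control and 11.96 and 11.99 in knockdown cells. That is a log2 fold change of 0.11 (interval -0.039 to 0.26). Prmt7, which leaves single methyl groups on arginine, was the lowest of the family with -0.25 (SE 0.062, adjusted p = 0.0534, limma) and groups that did not overlap. The others under this symbol were Prmt2 (0.01), Prmt3 (-0.025) and Prmt9 (-0.13). Carm1, an arginine methyltransferase of the same family outside the naming rule, had -0.145 (adjusted p = 0.17, limma). Whether the change of Prmt8 differs from that of Prmt1 was not tested.

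Of the H3K27 demethylases, which remove the mark set by Polycomb repressive complex 2, Kdm6b rose and Kdm6a did not pass the threshold. Kdm6b read 11.07 and 11.11 in control and 11.62 and 11.61 in knockdown cells, the tightest pairs of any enzyme that passed. The rise was 0.525 (SE 0.061, adjusted p = 0.0091, limma), a 1.44-fold higher level. The X-linked Kdm6a read 11.94 and 11.76 in control and 11.71 and 11.68 in knockdown cells. Its arrays did not overlap, but the log2 fold change of -0.155 had a 95% interval from -0.35 to 0.041. Uty, the Y-linked relative of Kdm6a, which is no member by the naming rule, read 11.02 on both control arrays and 10.47 and 10.53 after knockdown. It fell by 0.52 (SE 0.062, adjusted p = 0.0097, limma). Beside it, chosen after the values were seen, the Y-linked genes Zfy1 and Eif2s3y had log2 fold changes of -1.64 (adjusted p = 0.0142, limma) and -0.23 (adjusted p = 0.0622, limma), and the dim Usp9y had 0.045.

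**Figure D2:**
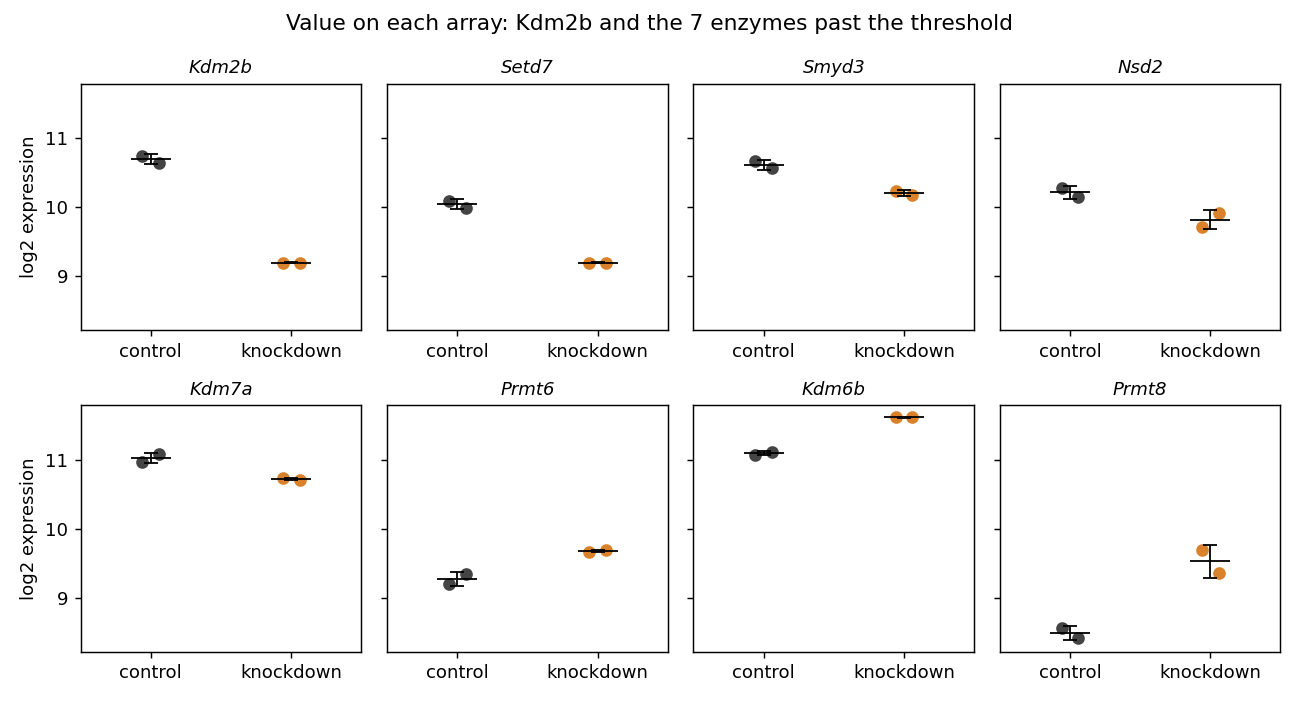
Log2 expression on each of the 4 arrays for Kdm2b and the 7 histone methylation enzymes past the threshold; points are arrays, horizontal marks the group mean and bars 1 SD (n = 2 arrays a group). In every panel the knockdown points and the control points do not overlap, and Prmt8 has the widest pair of knockdown arrays.

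Setd7 had the largest fall of the enzymes. It places a single methyl group on H3K4 and also methylates many other proteins. Setd7 read 10.09 and 9.99 in control cells and 9.19 and 9.20 in knockdown cells, so the gap between the groups was several times the gap within either. The log2 fold change was -0.845 (SE 0.066, adjusted p = 0.0055, limma), a 1.80-fold lower level, with a 95% interval from -1.01 to -0.68. Smyd3, a SET and MYND protein described both as an H3K4 enzyme and as a methyltransferase of cytoplasmic kinases, was at 10.66 and 10.56 in control and 10.24 and 10.18 in knockdown cells. It fell by 0.40 (SE 0.068, adjusted p = 0.0209, limma), with no overlap of the groups.

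The 7 members of the Kmt2 and Setd1 families lay on both sides of 0 and none passed the threshold, with 2 at an unadjusted p under 0.05 (limma). They are the catalytic subunits of the COMPASS-like complexes, except Kmt2e, whose own activity is in doubt. Setd1b, a writer of H3K4 trimethylation, read 11.10 on both control arrays and 11.41 and 11.31 after knockdown. Its difference of 0.26 just missed the threshold (SE 0.066, adjusted p = 0.0582, limma). Its other probe set, at 10.70 on both control arrays and 11.12 and 11.04 after knockdown, gave 0.38. Setd1b was called with the mean of both probe sets (0.32, adjusted p = 0.0319, limma), after quantile normalization (0.29, adjusted p = 0.0454) and with dim genes removed (adjusted p = 0.0405). Its adjusted p ran from 0.0319 to 0.286 over the alternatives. Kmt2b, which acts at CpG-rich promoters of developmental genes, had 0.24 (SE 0.07, adjusted p = 0.0818, limma) with groups that did not overlap. Kmt2d, an enhancer enzyme, had 0.175, but its knockdown arrays read 11.59 and 11.29 and met the control values of 11.29 and 11.24. In its other probe set, with 9.44 and 9.28 in control and 9.66 and 9.53 in knockdown cells, the groups did not overlap, and the difference was 0.235. Its partner in function Kmt2c had -0.19, Kmt2a -0.11, Kmt2e -0.265 and Setd1a 0.08. With each array left out in turn Kmt2c ran from -0.29 to -0.09, Kmt2a from -0.19 to -0.03 and Kmt2e from -0.415 to -0.115. Smyd1, an enzyme of heart and skeletal muscle, stood at 9.13 and 8.91 in control and 9.15 and 8.91 in knockdown cells. In all, 2 of 10 H3K4 methyltransferases were lower (7.19% of all genes, and 10.8% of those above the median level, as all 10 were), 0 higher and 8 neither.

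Of 6 H3K36 methyltransferases 1 was lower and 5 passed no threshold. Beside this, 7.19% of all genes were lower, and 10.8% of those above the median level, as all 6 were. Nsd2, which places H3K36 dimethylation and is deleted in Wolf-Hirschhorn syndrome, read 10.28 and 10.15 in control and 9.72 and 9.92 in knockdown cells. Its log2 fold change was -0.395 (SE 0.091, adjusted p = 0.0455, limma). After quantile normalization it was -0.37 and no longer passed (adjusted p = 0.0505, limma; 0.0319 to 0.324 over the alternatives). Its paralogues differed in value: Nsd1 read 12.56 and 12.46 in control and 12.52 and 12.47 in knockdown cells, a log2 fold change of -0.015, and Nsd3 had -0.16 with groups that did not overlap. Setd2, the writer of H3K36 trimethylation behind RNA polymerase II, had 0.07, and its other probe set gave 0.075. Smyd2 had 0.045 and Setmar -0.01.

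No H3K9 methyltransferase passed the threshold (0 of 5, with 1 at an unadjusted p under 0.05, limma). Of genes above the median level, where 4 of the 5 lay, 17.4% passed, and 29.8% of all genes had an unadjusted p under 0.05 (limma). Setdb1, which silences retroviral elements in stem cells, had 0.055 (95% interval -0.12 to 0.23). The partners Ehmt1 and Ehmt2, which write H3K9 dimethylation as a pair, had 0.04 and 0.18. Suv39h2, an enzyme of pericentromeric heterochromatin, read 10.10 and 10.15 in control cells and 9.60 and 9.96 in knockdown cells. Its knockdown arrays lay 0.36 apart, the widest gap of the 55 enzymes, and the difference of -0.345 was smaller than that gap (adjusted p = 0.124, limma). Setdb2, one of the 2 enzymes below the median level, had -0.085.

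Enzymes of H4K20 and H3K79 all had log2 fold changes under 0.1 in size. Of 4 measured 0 passed the threshold and 0 had an unadjusted p under 0.05 (limma). Of genes above the median level, where all 4 lay, 17.4% passed, and 29.8% of all genes had an unadjusted p under 0.05 (limma). Kmt5a, which places the first methyl group on H4K20, read 12.71 and 12.75 in control and 12.73 and 12.81 in knockdown cells. Kmt5b and Kmt5c, which extend that mark, had 0.095 and -0.065, and Dot1l, the writer of H3K79 methylation, had 0.08 (95% interval -0.082 to 0.24). Beside the same 17.4%, 0 passed the threshold among 6 SET and MYND proteins with other or poorly known substrates, all above the median level. Beside the same 29.8%, 1 had an unadjusted p under 0.05 (limma). That one was Setd6, a methyltransferase of the NF-kB subunit RelA, with 11.38 and 11.67 in control and 10.96 and 11.20 in knockdown cells. The groups did not overlap, but replicates lay 0.29 and 0.24 apart, and -0.445 had an adjusted p of 0.0738 (limma). Setd3, the actin histidine methyltransferase, had -0.09, with -0.085 from its other probe set. Setd4 (0.13), Setd5 (0.005), Smyd4 (-0.015) and Smyd5 (0.095) were the others.

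**Figure D3:**
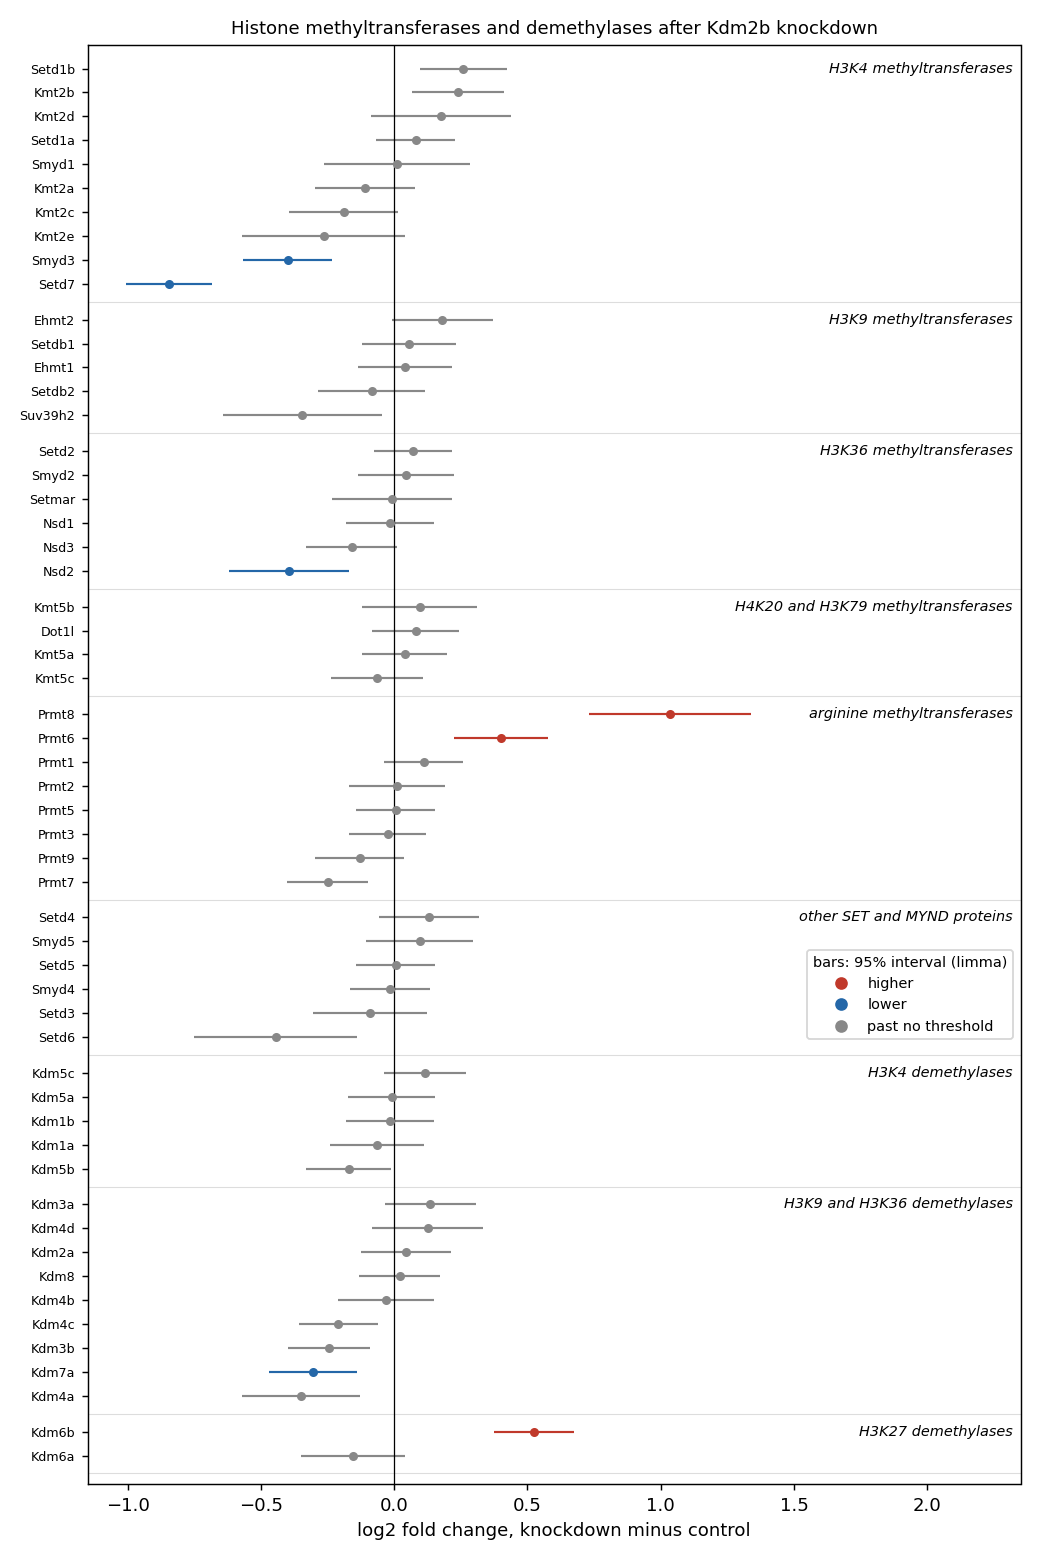
Log2 fold change (knockdown minus control) of each of the 55 enzymes, grouped by the residue they act on; points are limma estimates, bars 95% intervals, and colour marks the 7 that passed the adjusted threshold. Called enzymes are spread over 5 of the 9 groups, and the estimates of the H4K20 and H3K79 enzymes all lie between -0.065 and 0.095.

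Of 16 demethylases 1 was higher, 1 lower and 14 neither, or 12.5% called. That share is near the 12.2% of all genes and below the 17.4% of genes above the median level, where 15 of the 16 lay. Kdm7a, a JmjC enzyme with a PHD finger that removes H3K9 and H3K27 dimethylation, read 10.97 and 11.08 in control and 10.73 and 10.71 in knockdown cells. It fell by 0.305 (SE 0.068, adjusted p = 0.0409, limma), and its other probe set gave -0.325. After quantile normalization the change was -0.28 and did not pass (adjusted p = 0.0511, limma; 0.0226 to 0.265 over the alternatives). Kdm2a, the paralogue of Kdm2b with the same kind of CpG-binding zinc finger, read 10.88 and 11.00 in control and 10.99 and 10.98 in knockdown cells. The groups overlapped, and the 95% interval of its log2 fold change of 0.045 ran from -0.12 to 0.21.

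Kdm4a, Kdm3b, Kdm4c and Kdm4b had negative values short of the threshold. Kdm4a, which acts on H3K9 and H3K36, read 12.09 and 11.87 in control and 11.59 and 11.67 in knockdown cells, a difference of -0.35 (SE 0.09, adjusted p = 0.0606, limma). Kdm3b had -0.245 (SE 0.062, adjusted p = 0.0587) and Kdm4c -0.21 (SE 0.061, adjusted p = 0.0784, limma). In Kdm4a, Kdm3b and Kdm4c the groups did not overlap. Kdm3a, a hypoxia-responsive relative of Kdm3b, had 0.135, Kdm4b -0.03 and Kdm8 0.02. Kdm4d, the dimmest of the enzymes with a mean level of 7.32, had 0.125. No H3K4 demethylase passed (0 of 5, with 1 at an unadjusted p under 0.05, limma). All 5 lay above the median level, where 17.4% of genes passed, and 29.8% of all genes had an unadjusted p under 0.05 (limma). Kdm1a, the flavin-dependent enzyme of the CoREST complex, read 12.71 and 12.85 in control and 12.72 and 12.71 in knockdown cells (95% interval of the difference -0.24 to 0.11). Kdm5b, abundant in stem cells, had -0.17 with groups that did not overlap, Kdm5c 0.115, Kdm1b -0.015 and Kdm5a -0.01.

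The intervals given here cover only the spread of these arrays, whose replicates may be technical. Of the 48 uncalled enzymes, 46 had a 95% interval wholly within a 1.5-fold change either way (limma, not adjusted for the number of genes). Over all 55 enzymes the number was 49 (89.1%), beside 89.8% of all genes. The 48 were picked for passing no threshold, which favours such intervals, and the share over all uncalled genes was not counted. Of the 48, Setd6 and Suv39h2, with the widest replicate gaps of that group beside Kmt2d and Kmt2e, were the exceptions. The group difference exceeded the larger of the 2 replicate gaps for 25 of the 55 enzymes (45.5%), beside 48.3% of all genes. The median gap between replicates of the enzymes was 0.10 in control and 0.05 in knockdown cells.

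The fit has 2 residual degrees of freedom. Without any 1 of the 4 arrays limma called 0 of all 19938 genes, the enzymes among them. Enzymes with an unadjusted p under 0.05 numbered 11 to 14 in these fits and 16 with all arrays; over all genes the numbers were 3495 to 4215 and 5941. The signs of the 7 could not change in these fits, since their groups did not overlap. Prmt8 ran from 0.865 (without knockdown replicate 1) to 1.205 (without knockdown replicate 2). Setd7 ran from -0.895 to -0.795, Kdm6b from 0.505 to 0.545 and Nsd2 from -0.495 to -0.295. Tested among all 35557 probe sets, 0 passed, enzymes included (14 enzymes and 7742 probe sets at an unadjusted p under 0.05, limma), and the smallest adjusted p of an enzyme was 0.0679. Besides Setd1b, which passed in 3 of the 12 alternatives, Prmt7, Kdm3b and Kdm4a passed after median centring, with dim genes removed and with a prior that follows intensity, while Setd6 passed after median centring only. Over all alternatives their adjusted p-values ran from 0.0362 to 0.266 (Prmt7), 0.0375 to 0.27 (Kdm3b), 0.043 to 0.351 (Kdm4a) and 0.0447 to 0.406 (Setd6, limma). The scaling of the arrays moved the balance of calls: 3 higher and 4 lower as deposited (42.9% higher), 4 and 2 after quantile normalization (66.7%), and 3 and 8 after median centring (27.3%). Of all genes called, 41% were higher as deposited, 41% after quantile normalization and 31.1% after median centring.

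**Figure D4:**
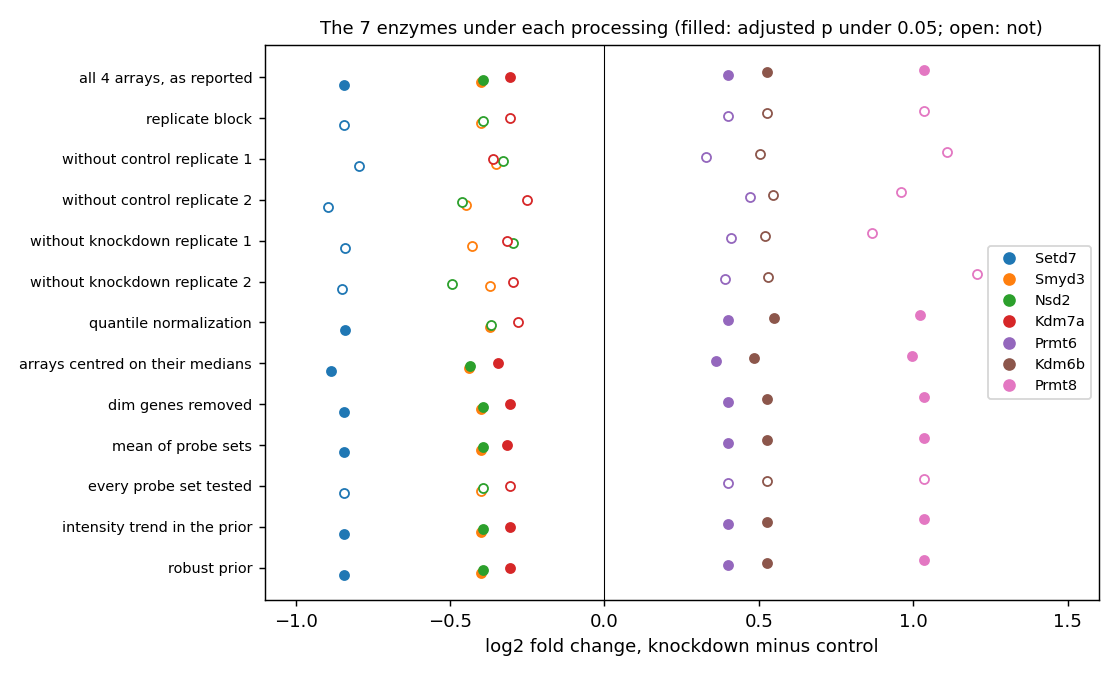
Log2 fold change (knockdown minus control) of the 7 enzymes as reported and under 12 other processings; filled points had an adjusted p under 0.05 and open points did not. The estimates keep their side of 0 in every row, which the lack of overlap fixes where an array was left out. All points are open in those rows, where the replicate number was a block and where every probe set was tested.

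Promoter sequence was examined because the zinc finger of Kdm2b binds CpG-rich DNA. No binding data are part of this series, so the counts describe the promoters only. Promoter windows of 300 bases, from 250 before to 50 after the start site, were matched for 43 of the 55 enzymes and 15562 of the genes tested (RefSeq, build GRCm38.p6). For a gene with several start sites the window with the most CpG dinucleotides was used. CG, which reads the same on both strands, occurred at least once in 100% of the matched enzymes and in 96% of all matched genes. The enzymes had a median of 28 CpG per window, beside 16 over all genes, and 83.7% of them, beside 54.3%, held at least 15. Such counts move with the GC content of the window. They were not made apart for genes above the median level, where 53 of the 55 enzymes lay. Of the 7 enzymes past the threshold 4 were matched, and their counts were 65 (Kdm7a), 44 (Prmt8), 21 (Setd7) and 16 (Prmt6). The 39 others ran from 1 (Setd5) to 56 (Kmt2c), with a median of 28, so Kdm7a lay above the range of the rest and the other 3 within it.

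**Figure D5:**
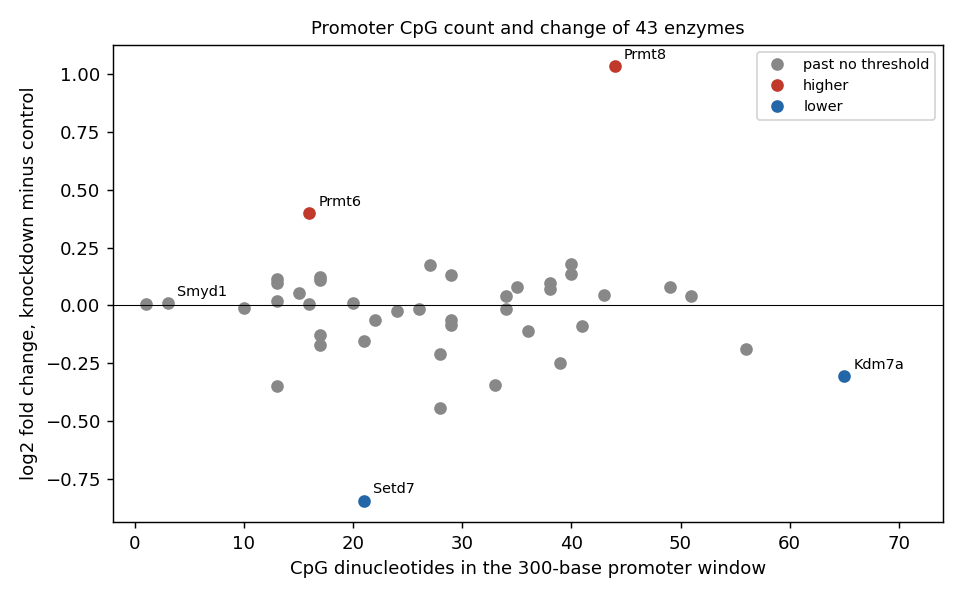
CpG dinucleotides in the 300-base promoter window (horizontal) and log2 fold change, knockdown minus control (vertical), of the 43 enzymes with a matched window; colour marks the call. The higher enzymes with a window stand at 16 and 44 CpG and the lower ones at 21 and 65; uncalled enzymes reach up to 56.

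The 250 bases before the start site are shown for the 4 matched enzymes that passed, and for Smyd1 as an enzyme with few CpG. They are written 5′ to 3′ on the strand of the gene, with each CpG in capitals. All are from GRCm38.p6 and lie on the minus strand, Prmt8 at chr6:127769156-127769405, Prmt6 at chr3:110251000-110251249, Setd7 at chr3:51560824-51561073, Kdm7a at chr6:39206774-39207023 and Smyd1 at chr6:71262282-71262531. They hold 37 CpG (Prmt8), 13 (Prmt6), 17 (Setd7), 56 (Kdm7a) and 2 (Smyd1).
Prmt8: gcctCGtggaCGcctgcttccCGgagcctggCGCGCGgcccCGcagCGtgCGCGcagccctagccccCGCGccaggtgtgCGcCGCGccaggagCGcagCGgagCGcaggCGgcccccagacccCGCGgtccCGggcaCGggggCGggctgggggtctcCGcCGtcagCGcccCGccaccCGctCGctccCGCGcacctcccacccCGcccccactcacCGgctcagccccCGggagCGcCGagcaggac
Prmt6: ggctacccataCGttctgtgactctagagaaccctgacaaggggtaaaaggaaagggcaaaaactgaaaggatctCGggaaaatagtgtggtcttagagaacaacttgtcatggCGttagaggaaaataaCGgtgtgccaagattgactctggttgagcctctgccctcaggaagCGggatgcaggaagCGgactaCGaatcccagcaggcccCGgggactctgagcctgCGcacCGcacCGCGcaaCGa
Setd7: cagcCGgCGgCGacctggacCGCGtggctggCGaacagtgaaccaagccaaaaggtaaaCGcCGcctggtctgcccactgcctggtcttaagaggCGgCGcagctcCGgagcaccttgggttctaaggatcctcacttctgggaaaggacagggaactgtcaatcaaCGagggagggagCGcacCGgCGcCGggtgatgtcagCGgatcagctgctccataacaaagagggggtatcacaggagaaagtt
Kdm7a: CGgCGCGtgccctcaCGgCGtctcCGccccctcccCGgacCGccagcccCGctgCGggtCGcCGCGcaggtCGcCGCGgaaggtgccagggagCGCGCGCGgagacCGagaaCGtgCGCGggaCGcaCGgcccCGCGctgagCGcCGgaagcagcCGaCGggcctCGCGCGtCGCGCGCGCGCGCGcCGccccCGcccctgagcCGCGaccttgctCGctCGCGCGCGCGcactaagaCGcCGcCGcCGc
Smyd1: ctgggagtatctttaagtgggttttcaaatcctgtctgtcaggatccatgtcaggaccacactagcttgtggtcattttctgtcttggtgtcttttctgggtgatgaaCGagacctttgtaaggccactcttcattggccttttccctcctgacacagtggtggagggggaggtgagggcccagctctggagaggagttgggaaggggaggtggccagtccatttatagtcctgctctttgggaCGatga
In Kdm7a and Prmt8 the capitals run through the whole stretch, in Prmt6 they gather toward the start site, and in Smyd1 only isolated pairs are seen. Of the 4 enzymes that passed, one that rose (Prmt8) and one that fell (Kdm7a) had the higher counts, and one that rose (Prmt6) and one that fell (Setd7) the lower ones.

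The wider set of histone methylation genes was read from lists of related enzymes and partner subunits. Of 24 other histone methylation enzymes and relatives measured (26 listed), 2 were higher, 3 lower and 19 neither, or 20.8% called. Beside this, 12.2% of all genes passed, and 17.4% of genes above the median level, where 18 of the 24 lay. Prdm1, a transcriptional repressor that acts within the germ cell and B cell lineages, fell by 1.36 (SE 0.13), from 10.57 and 10.61 to 9.43 and 9.03. Jmjd6, a JmjC hydroxylase, rose by 0.555 (SE 0.13, adjusted p = 0.0432, limma), from 10.77 and 11.15 to 11.51 and 11.52. Of 14 subunits of COMPASS-like complexes, 1 was higher and 2 lower, or 21.4% called beside 17.4% of genes above the median level, where all 14 lay. Wdr82, the subunit that brings Setd1a and Setd1b to RNA polymerase II, fell by 0.47 (SE 0.071), from 13.27 and 13.15 to 12.71 and 12.77. Psip1, the chromatin tether of Kmt2a, fell by 0.35 and Men1, another Kmt2a partner, rose by 0.28 (SE 0.061). Of 12 Kdm1a and CoREST subunits measured, 1 was lower, Zmym3 (-0.54, SE 0.078), and 0 were higher. That is 8.33% called, beside 17.4% of genes above the median level, where all 12 lay. Of 9 Dot1l and elongation cofactors, all above the median level, 1 was higher, Mllt1 (0.305, SE 0.063), or 11.1% called beside the same 17.4%. Of 11 H3K9 methylation readers and cofactors 0 passed (3 at an unadjusted p under 0.05, limma), nor did any of 3 Prmt5 cofactors (0 at an unadjusted p under 0.05). All of these lay above the median level, where 17.4% of genes passed. Of all genes, 29.8% had an unadjusted p under 0.05 (limma).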

How the data were processed

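The authors deposited log2 expression values of each probe set. Per the submitters' processing notes they used Affymetrix Expression Console; version, background step, summary method and scaling between arrays were not given in the sources used here. The log2 scale was inferred from the range of values, 3.12 to 14.74. Of 35557 probe sets, 21789 had 1 symbol in the platform annotation, 1621 several and 12147 no entry. For each gene the single-symbol probe set with the highest mean was used (19938 genes). The groups were compared in limma 3.58.1 (R 4.3.3) by lmFit and eBayes with group as the term (two-sided; Benjamini-Hochberg over all genes; prior 3.9 and residual 2 degrees of freedom). Arrays were grouped by title. An exact permutation test of 2 against 2 arrays cannot go below p = 0.333. On simulated data for this comparison (19938 genes) the fit recovered, of 50 genes each, 0 of those changed 1.25-fold, 39 of those changed 1.5-fold, 47 of those changed 2-fold and 50 of those changed 3-fold, and it called 8 of 19738 unchanged genes. The simulation changed a far smaller share of genes than the 12.2% that passed in the data, so its adjusted threshold was stricter. Its recovery therefore does not carry over directly: Kdm7a, at 1.235-fold, passed in the data.

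Members, role groups and gene lists were chosen with earlier results of these data known. Every member could be named, with up to 3 called genes of each list. Alternatives were a replicate block, leaving out each array, quantile normalization, median centring, a dim-gene filter (mean above 8.52), the mean of probe sets, every probe set, an intensity trend or robust prior, an adjusted p under 0.1 and an added 1.5-fold minimum. The number of arrays limits the precision.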

Additional observations from a re-analysis of the deposited data

How the results depend on the processing

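No enzyme past the threshold changed sign under any of the 12 alternative fits, but calls did change. Where an array was left out this was fixed in advance, since the groups did not overlap for any of the 7. The replicate block, the dim-gene filter, the test of every probe set, the intensity trend and the robust prior leave each estimate as it was. With the replicate number as a block limma called 0 of all 19938 genes, and so 0 enzymes in either direction (5411 genes and 14 enzymes at an unadjusted p under 0.05), and Kdm2b had an adjusted p of 0.127 at an unchanged -1.495. The labels do not say that the numbers pair arrays, and the replicate differences of the 2 groups correlated at 0.0954 across genes. With each array left out 0 genes of 19938 were called, so that 0 enzymes were called higher and 0 lower (11 to 14 at an unadjusted p under 0.05), while Kdm2b ran from -1.545 to -1.445 with adjusted p from 0.196 to 0.258; these fits and the block leave 1 residual degree of freedom, and a lone array is assumed to vary like the other group. With every probe set tested, 0 of 35557 rows passed in limma (7742 at an unadjusted p under 0.05), 0 enzymes were higher and 0 lower, and Kdm2b stood at -1.495 (adjusted p = 0.0679); more rows were tested, and the cause beyond that was not tested. Enzymes called lower numbered 2 after quantile normalization, 8 after median centring, 7 with dim genes removed (11526 genes tested) and 7 with an intensity trend in the prior, against 4. Of all genes tested, 1478, 1866, 1516 and 1572 were lower in these fits, in that order, against 1434. With an adjusted p under 0.1, 5 enzymes were higher and 9 lower. With a fold of at least 1.5 as well, 1 was higher (Prmt8) and 1 lower (Setd7). All genes were not counted at these thresholds.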

Other observations

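Genes for enzymes that supply and clear the methyl donor, and relatives of them, were read as well, since the methyltransferases draw on S-adenosylmethionine. Of 9 listed, only 6 were measured: Mtr, Mtrr, Mat2b, Gnmt, Ahcyl1 and Ahcyl2. Mat1a, Mat2a and Ahcy were not among them, so the counts cover only part of this supply and clearance. Of the 6 measured, 3 were lower, 0 higher and 3 neither (limma). Beside this, 7.19% of all genes were called lower, and 10.8% of those above the median level, as 5 of the 6 were. The median log2 fold change was -0.235. Mtr, methionine synthase, read 10.95 and 10.89 in control and 10.64 and 10.60 in knockdown cells and fell by 0.30 (SE 0.063). Ahcyl2, a relative of adenosylhomocysteinase, fell by 0.53 (SE 0.075), and Gnmt, glycine N-methyltransferase, fell by 0.435 (SE 0.079). Gnmt lay below the median level, at a mean of 8.22.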
